A study of Mus musculus with 14 samples.

Results

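A set of genes that define or mark blood progenitors, Gata2, Meis1, Prdm16, Cd93, Cd48, Runx1, Myb, Kit, Hlf and Mecom, were looked up in the authors' lists of chromatin regions whose accessibility differed between groups of Ezh2 knockout and wild type cells. The genes were chosen by name and by the authors' calls: a named gene counted as found if its symbol stood on a line of any of the 6 lists. Of the 10 genes, 5 had a line (Gata2, Meis1, Prdm16, Cd93 and Cd48), with 12 regions among the 9954 regions of all 3 comparisons, and 5 had none (Runx1, Myb, Kit, Hlf and Mecom). The lists together name 6687 genes, and 26.8% of 21900 protein-coding RefSeq genes have a line. Because a call in these lists is what put a gene in, the fold changes below are a description and no test was run on them.

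The cells were E10.5 mouse erythro-myeloid progenitors from yolk sac, strain C57BL/6, sorted as 500 cells per library for ATAC-seq, in which a transposase tags accessible DNA. Every embryo was Ezh2fl/fl. The 5 Tie2 KO samples also carried Tie2-CreTg/+, a Cre recombinase under the Tie2 (Tek) promoter, which is active in endothelium and in the blood cells that arise from it. The 3 Vav KO samples carried Vav-CreTg/+, active in blood cells. The 3 Tie2 WT samples had the same floxed alleles and no transgene. The 3 Vav WT samples enter none of the lists, so Vav KO was compared with controls of the other Cre line, and line and genotype cannot be told apart there. The files give each region a log2 fold change with its adjusted p-value, and nothing per sample, so depth and the spread between embryos are unknown, and the labelled cell type could not be checked against marker levels.

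Erythro-myeloid progenitors arise from haemogenic endothelium of the yolk sac, a step that needs Runx1, and they go on to make red cells, megakaryocytes, mast cells and macrophages before definitive stem cells take over. Gata2, Runx1, Meis1, Hlf, Myb, Mecom and Prdm16 encode transcription regulators that keep blood progenitors going. Kit, Cd93 and Cd48 encode surface proteins by which progenitors are sorted. Ezh2 is the catalytic subunit of PRC2, which places the repressive H3K27me3 mark, mostly on CpG-rich promoters of genes that are silent in a cell type.

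Gata2, Meis1, Prdm16 and Cd48 have a promoter window in the RefSeq table (GRCm38.p6, the assembly that the name mm10 stands for), and Cd93 has none in it. At 3 of these 4 genes a called region reached into the window, which runs from 250 bases before to 50 bases after the gene start, and these 3 windows are shown because the accessibility values bear on them. They are printed 5′ to 3′ on the strand of the gene, in lower case. Capitals mark matches on either strand to one of 8 short motifs searched, and the motifs found here are GGGCGG (SP/KLF factors), TGTGGT (RUNX factors) and CCGGAAG (ETS factors). The Gata2 window lies at chr6:88193641-88193940 on the plus strand, the Prdm16 window at chr4:154636824-154637123 on the minus strand and the Cd48 window at chr1:171681742-171682041 on the plus strand.
Gata2: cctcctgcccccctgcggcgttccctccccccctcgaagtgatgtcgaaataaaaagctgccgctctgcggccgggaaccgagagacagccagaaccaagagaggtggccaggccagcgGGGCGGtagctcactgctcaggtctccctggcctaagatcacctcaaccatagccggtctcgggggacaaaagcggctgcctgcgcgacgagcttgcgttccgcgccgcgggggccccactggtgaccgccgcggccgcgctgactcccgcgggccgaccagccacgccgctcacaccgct
Prdm16: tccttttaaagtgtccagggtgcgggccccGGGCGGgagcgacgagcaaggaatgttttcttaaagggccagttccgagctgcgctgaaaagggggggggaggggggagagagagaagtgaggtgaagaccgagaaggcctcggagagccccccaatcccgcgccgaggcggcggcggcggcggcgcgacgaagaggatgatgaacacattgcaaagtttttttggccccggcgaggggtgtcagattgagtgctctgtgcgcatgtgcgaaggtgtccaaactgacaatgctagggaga
Cd48: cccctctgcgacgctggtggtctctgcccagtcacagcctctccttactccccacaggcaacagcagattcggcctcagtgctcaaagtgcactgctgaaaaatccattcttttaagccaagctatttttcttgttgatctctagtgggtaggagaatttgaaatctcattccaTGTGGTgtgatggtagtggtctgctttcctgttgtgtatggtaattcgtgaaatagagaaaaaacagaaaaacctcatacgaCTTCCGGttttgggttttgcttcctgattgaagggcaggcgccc

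In Vav KO against Tie2 WT, Gata2, Cd93, Meis1 and Cd48 each had a lower region nearby and Prdm16 a higher one. These are 4 and 1 of the 10 genes, where 2.59% of all 21900 protein-coding genes had a lower region nearby and 5.29% a higher one. In Tie2 KO against Tie2 WT, Prdm16 was near higher regions and Cd48 near a lower one, which is 1 gene in each direction, against 11.5% and 2.51% of protein-coding genes. When Tie2 KO was set directly against Vav KO, Prdm16 and Gata2 lay near higher regions and Cd48 near a lower one, 2 and 1 genes, against 11.1% and 6.35% of protein-coding genes. The genes were chosen with these lists in view, so nothing is read from their counts. In sorted bulk cells, a lower share of cells with open chromatin at a gene and less open chromatin per cell cannot be told apart.

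**Figure D1:**
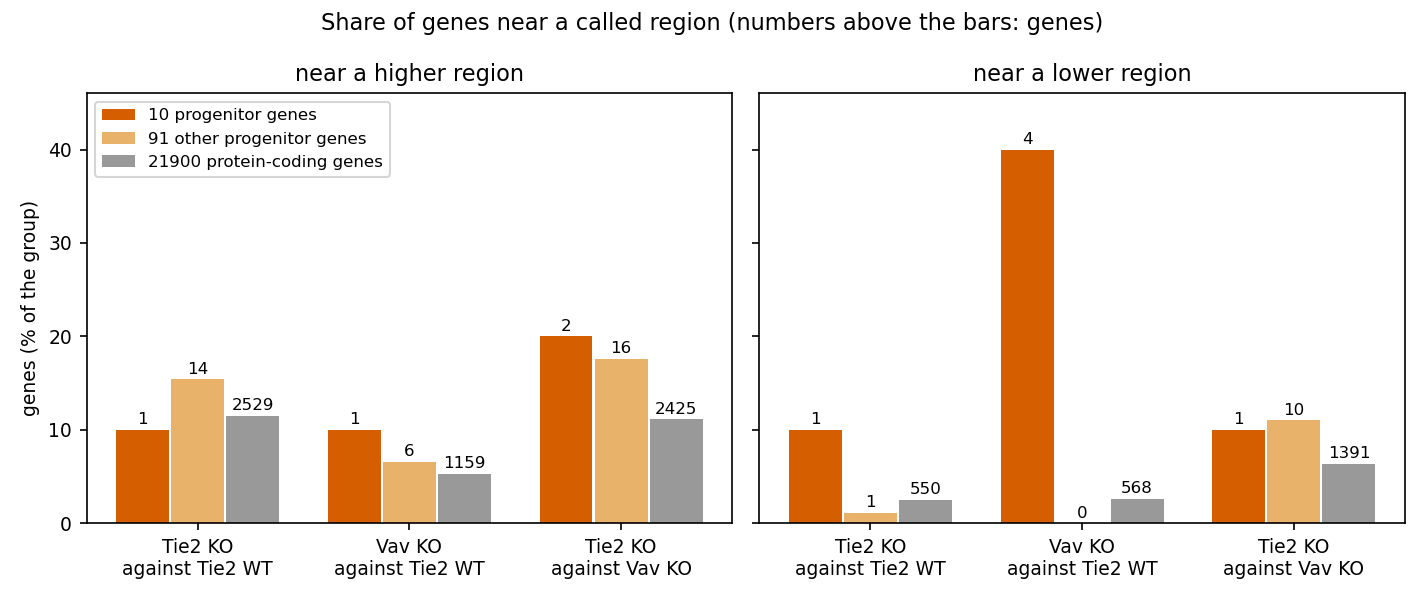
The bars give the percentage of genes with a higher (left) or lower (right) region nearby in each comparison, for the 10 progenitor genes, 91 other progenitor genes and 21900 protein-coding genes, with the number of genes above each bar. The 10 genes stand highest near lower regions of Vav KO against Tie2 WT, at 4 genes. There the 91 others have 0, beside 2.59% of protein-coding genes. The 10 genes were chosen with these lists in view, so nothing is read from this contrast.

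Gata2, a zinc finger factor that blood progenitors need to survive and multiply, had a region upstream of its distal gene start that was lower in Vav KO than in Tie2 WT. In the authors' deposited table its log2 fold change was -1.55, an accessibility in Vav KO of 0.342 times that in Tie2 WT, with an adjusted p of 2.87e-07. The region spans chr6:88192402-88193400 (mm10), from 1489 to 491 bp before the gene start. By adjusted p per the authors' deposited table it was number 8 of the 630 lower regions of that comparison, and by size of fold change number 174.

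Between Tie2 KO and Vav KO a wider region, chr6:88192002-88193700, held all 999 bp of that one and was higher in Tie2 KO, with a log2 fold change of 0.92 per the authors' deposited table. Its adjusted p of 0.0471 per the authors' deposited table was the largest of the 2873 higher regions of that list, so this call is the one nearest the threshold. It ended 190 bp before the gene start and covered 60 bases of the promoter window shown above. No region near Gata2 was called in Tie2 KO against Tie2 WT. The second RefSeq start of Gata2, with a promoter window at chr6:88198414-88198713, had no called region over it in any comparison. Within 100 kb of the gene the only other listed regions were upstream of Dnajb8. In the authors' deposited table one at 13269 bp beyond the gene was lower in Tie2 KO than in Tie2 WT, at -1.73, and one at 11969 bp was higher in Vav KO than in Tie2 WT, at 0.79.

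Prdm16 encodes a zinc finger regulator with a SET-like PR domain that maintains stem cells of blood and brain, and it was the only one of the 10 genes near higher regions in all 3 comparisons, which share samples. For Tie2 KO against Tie2 WT, the authors' deposited table holds a region at chr4:154634002-154640200 with a log2 fold change of 0.94 (adjusted p 9.25e-08). It covered the gene start and reached 3327 bp upstream and 2871 bp into the gene. At 6199 bp it was number 9 in width of the 2959 higher regions, whose median width was 1599 bp. After a gap of 101 bp followed a second region, chr4:154640302-154642500, at 1.67 with an adjusted p of 2.07e-07 by the authors' deposited table. Both together covered 8398 bp, and the distal part had the larger fold change.

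In Vav KO against Tie2 WT only 999 bp were called at Prdm16, at chr4:154641002-154642000, with a log2 fold change of 1.07 (adjusted p 0.00129) per the authors' deposited table. This region lay 4128 bp upstream and inside the distal region of Tie2 KO. The gene start itself was not covered. Against Vav KO, regions at chr4:154637502-154642500 and chr4:154634402-154637100 were higher in Tie2 KO. In the authors' deposited table their log2 fold changes were 1.32 and 0.99 and their adjusted p 5.23e-07 and 1.94e-06. Together they covered 7698 bp, from 5627 bp upstream to 2471 bp into the gene, including 277 of the 300 bases of the promoter window. The RefSeq gene record of Prdm16 has its outer edge at 154637360, in the gap between both regions. So the authors' gene start was called as more accessible in Tie2 KO than in either of the other groups, and a distal upstream part was called in both knockouts. The regions over the start were also paired with 5930403L14Rik, a transcript whose start lies in them, and the values cannot be assigned to one of the pair. A region over the start of Arhgef16, 13.7 kb beyond the other end of Prdm16, rose in Tie2 KO against Tie2 WT, at 1.03 per the authors' deposited table.

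Meis1, a TALE homeodomain partner of HOX and PBX proteins, had a single region, lower in Vav KO than in Tie2 WT, with a log2 fold change of -1.06 (adjusted p 0.008) per the authors' deposited table. It lies at chr11:19023702-19025500, beginning 4732 bp upstream of the gene start, near the largest distance in the lists of 4999 bp. At 1799 bp it was number 12 in width of 630, but number 617 by adjusted p per the authors' deposited table. No other listed region lay within 100 kb of Meis1.

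Of the surface markers, Cd48, a SLAM-family receptor that separates stem cells from later progenitors, was called in all 3 comparisons, each time lower in the group named first. In the authors' deposited table, Tie2 KO against Tie2 WT had a log2 fold change of -0.89 (adjusted p 0.00136) over chr1:171680802-171682200. In the authors' deposited table, Vav KO against Tie2 WT had -0.84 (adjusted p 0.00101) over chr1:171681302-171682400. Both regions covered the gene start and all 300 bases of the promoter window. The start of Cd48 depends on the source, being 171682055 per the authors' deposited table, 171681992 for the promoter window and 171681245 for the outer edge of the RefSeq gene record. Computed from these values, Tie2 KO had 0.54 times and Vav KO 0.559 times the accessibility of Tie2 WT.

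Between Tie2 KO and Vav KO the called part of Cd48 was narrower, chr1:171680802-171681800, and ended 254 bp before the authors' gene start, although it holds the outer edge of the RefSeq gene record and 59 bases of the promoter window. Its log2 fold change per the authors' deposited table was -1.08, with an adjusted p of 1.82e-05. The values against Tie2 WT differ by -0.05, Tie2 KO minus Vav KO, over regions that share 899 bp, whereas the region called between the knockouts shares only 499 bp with the region called in Vav KO. The lists hold no value for one common window, so whether the difference between knockouts is limited to that region was not tested. At Prdm16 the same subtraction gave 0.6 upstream, beside 1.32 in the direct comparison. Of other listed regions within 100 kb of Cd48, one near Mir7683, 36.4 kb away, was higher in Vav KO than in Tie2 WT, at 0.96 per the authors' deposited table. Ly9, another SLAM receptor gene, 72.9 kb away, had a region over its start that was lower in Tie2 KO than in Vav KO, at -1.78 per the authors' deposited table.

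Cd93, a C-type lectin receptor known as AA4.1 and used to sort fetal blood progenitors, had a region lower in Vav KO than in Tie2 WT. The authors' deposited table puts its log2 fold change at -1.45, or 0.366 times the accessibility in Tie2 WT, with an adjusted p of 8.48e-05. It spans chr2:148443702-148444700, from 1165 to 167 bp before the gene start. It was called neither in Tie2 KO against Tie2 WT nor between the knockouts. The regions of Gata2 and Cd93 in Vav KO against Tie2 WT were both 999 bp wide, the smallest width in the lists, which 319 of the 630 lower regions of that comparison have.

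**Figure D2:**
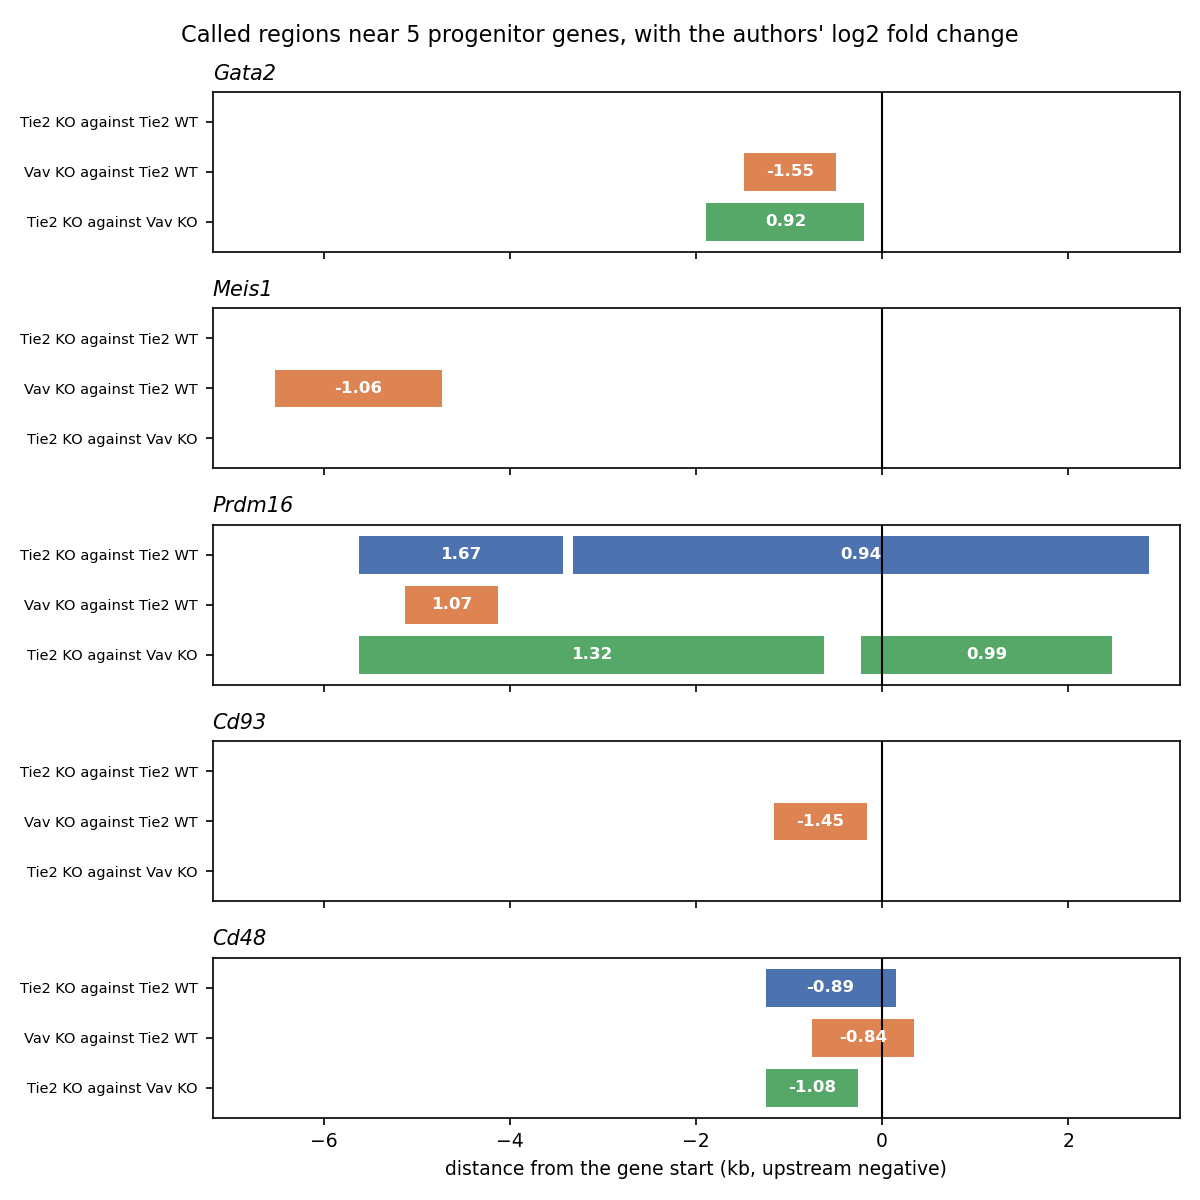
Bars show the called regions near each of the 5 genes by distance from the gene start in kb, upstream negative and with the black line at the start, 1 row per comparison, and the white number is the log2 fold change per the authors' deposited table. Prdm16 has the widest regions, and the regions of Gata2, Meis1 and Cd93 do not reach the gene start.

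**Figure D3:**
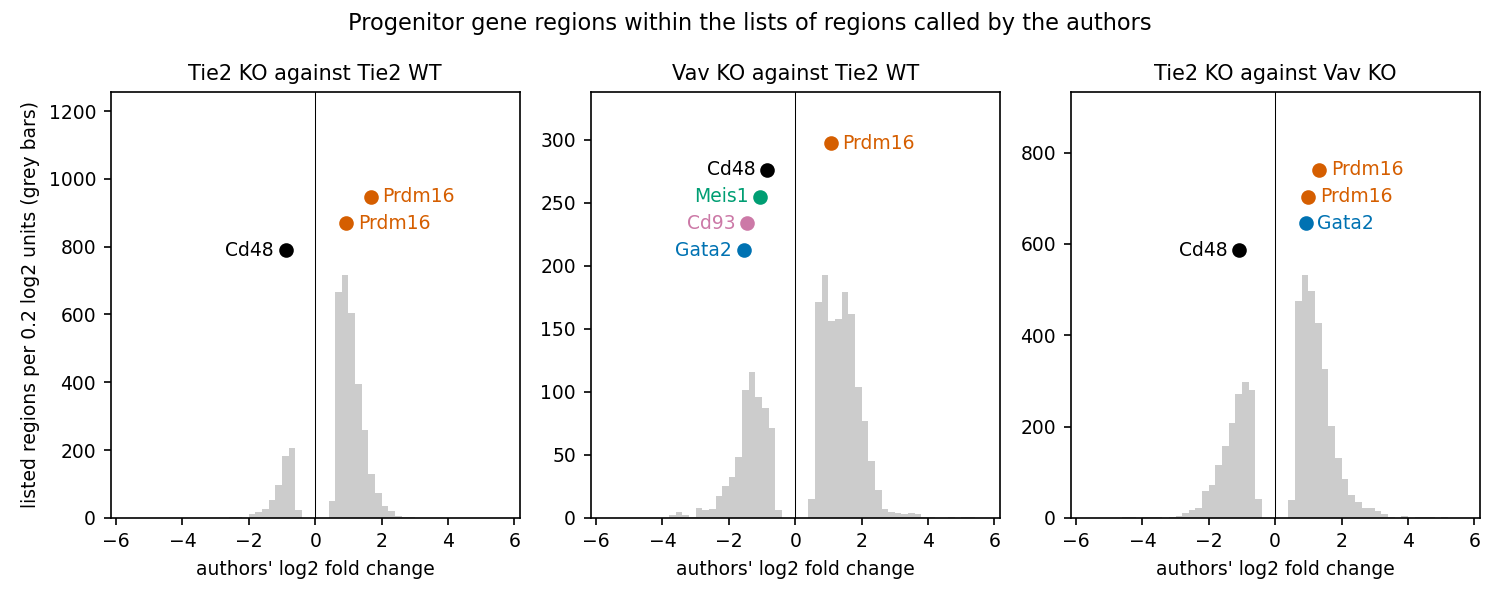
Grey bars count all listed regions of a comparison by log2 fold change per the authors' deposited table, and the dots mark the regions of the progenitor genes on that axis, their height having no meaning. The 12 dots lie between -1.55 and 1.67, and 10 of them lie between the quartiles of their own list.

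Of the 12 regions, 10 had a fold change between the quartiles of their own list, the exceptions being the distal Prdm16 region of Tie2 KO above and the Cd48 region of Vav KO below, both against Tie2 WT. In Vav KO against Tie2 WT the lower regions had a median log2 fold change of -1.3, with Gata2 and Cd93 beyond it and Meis1 and Cd48 short of it. The distal Prdm16 region of Tie2 KO against Tie2 WT, at 1.67, was number 205 of 2959 by size per the authors' deposited table. The smallest absolute log2 fold change in the lists was 0.58, so values nearer 0 are not seen, and the smallest of the members was -0.84 at Cd48.

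Runx1, Myb, Kit, Hlf and Mecom had no line in any list. No listed region of any gene lay within 100 kb of Runx1, the master regulator of blood emergence, Myb, which definitive progenitors need, Kit, the receptor for stem cell factor, or Hlf, a bZIP factor that marks stem cells. Near Mecom, a paralogue of Prdm16, there was 1, upstream of Mynn at 86.1 kb and higher in Tie2 KO than in Vav KO (1.05 per the authors' deposited table). The lists hold only called regions at or within 5 kb upstream of a gene start, so the lack of a line does not show equal accessibility, and enhancers inside or far from these genes are not covered.

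Of 91 other genes of blood progenitors, 52 encode regulators and 39 encode surface or secreted proteins. Among the 91, 14 had a higher region nearby and 1 a lower one in Tie2 KO against Tie2 WT. These are 15.4% and 1.1% of the list, beside 11.5% and 2.51% of protein-coding genes. The median log2 fold change of the 14, taking the strongest region per gene, was 0.94, beside 1.04 for all genes near higher regions. Of 10 homeobox genes on the list (Hox, Meis, Pbx, Nkx2-3 and Hhex) 5 were among them, and of the 81 others 9. Near higher regions of Vav KO against Tie2 WT these were 2 of 10 and 4 of 81, beside 5.29% of protein-coding genes. For Tie2 KO against Vav KO they were 4 of 10 and 12 of 81, beside 11.1% of protein-coding genes. None of the 10 was near a lower region in any comparison, where lower regions lay near 2.51%, 2.59% and 6.35% of protein-coding genes. Meis1, a homeobox gene counted among the members and not among these 10, was near a lower region in Vav KO against Tie2 WT. The split into homeobox genes and others was not among the planned counts, and nothing is read from it. In Tie2 KO against Tie2 WT the largest value per the authors' deposited table was 1.54 at Hes1, a Notch target. Erg, an ETS factor of endothelium and stem cells, had 1.52 and Gata3 1.35. Nkx2-3, Nfix and Hoxa7 followed at 1.2, 1.08 and 1.01 per the authors' deposited table.

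In Vav KO against Tie2 WT, 6 of the 91 genes had a higher region nearby and 0 a lower one, beside 5.29% and 2.59% of protein-coding genes. At a share of 2.59% few of 91 genes would be near a lower region, so nothing is read from the 0. The 4 lower genes described above were chosen with these lists in view, so the 91 are not set against them. Weaker differences are not in the files. The higher ones per the authors' deposited table were Cxcr4, the receptor that holds stem cells in their niche, at 1.8, Epor, the erythropoietin receptor, at 1.7, Hoxa10 at 1.55, Spn at 1.03, Csf1r, the macrophage growth factor receptor, at 0.92 and Meis2 at 0.79. The median of the 6 was 1.29, beside 1.37 for all genes near higher regions.

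Between Tie2 KO and Vav KO, 16 of the 91 genes had a higher region nearby (17.6%) and 10 a lower one (11%), beside 11.1% and 6.35% of protein-coding genes. The medians were 1.18 and -0.94, beside 1.17 and -1.12 for all genes near regions of that list. Higher genes per the authors' deposited table were led by Tcf15 at 3.05, Hes1 at 2.33, Foxo3 at 1.89, Gfi1, a repressor of the endothelial programme in emerging blood, at 1.42, and Hoxb5 and Hoxa7 at 1.4 each. Lower genes per the authors' deposited table were led by Vwf at -1.53, Ldb1, the bridging partner of GATA and TAL1 complexes, at -1.36, Csf1r at -1.33 and Cd34, a sialomucin of progenitors, at -1.09. Ikzf2 and Itgam followed at -0.97 and -0.92 per the authors' deposited table. Of surface or secreted proteins 3 of 39 were higher and 6 lower, and of regulators 13 of 52 were higher and 4 lower. Csf1r and Epor, which were near higher regions in Vav KO against Tie2 WT, were near lower ones here, and the comparisons share the Vav KO samples.

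Markers of other cells that a yolk sac sort could hold were counted as well. These marker lists share genes with the other progenitor genes above, among them Erg, Epor, Csf1r and Vwf. Calls at shared genes enter both counts, so the counts are not from separate sets of genes. Near higher and lower regions lay 7 and 3 of 20 endothelial, 9 and 0 of 20 yolk sac mesoderm and endoderm, 0 and 5 of 17 megakaryocyte and mast, 2 and 1 of 20 macrophage and granulocyte and 2 and 0 of 14 erythroid markers in Tie2 KO against Tie2 WT, beside 11.5% and 2.51% of protein-coding genes. In Vav KO against Tie2 WT, higher and lower regions lay near 0 and 0 endothelial, 1 and 2 mesoderm and endoderm, 0 and 3 megakaryocyte and mast, 1 and 0 macrophage and granulocyte, and 5 and 0 erythroid markers, beside 5.29% and 2.59% of protein-coding genes. For Tie2 KO against Vav KO the numbers were 6 and 2 endothelial, 8 and 0 mesoderm and endoderm, 2 and 5 megakaryocyte and mast, 4 and 3 macrophage and granulocyte, and 1 and 2 erythroid markers, beside 11.1% and 6.35%. The part of cell makeup in the values of the progenitor genes was not tested. Of the genes that carry or drive the alleles, Ezh2 had no line. Tek was higher in Tie2 KO, at 2.9 against Tie2 WT and 2.92 against Vav KO per the authors' deposited table. It is among the endothelial markers counted near higher regions of those comparisons. Vav1 was higher in Vav KO than in Tie2 WT, at 0.81, and lower in Tie2 KO than in Vav KO, at -0.9, per the authors' deposited table. Whether transgene copies of the driver sequences add reads at Tek or Vav1 was not tested.

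The promoter windows of the members differed widely in base composition. The table held 13 windows for 9 of the 10 genes. The Cd48 window had 47.3% G or C and an observed over expected CpG ratio of 0.417, beside medians of 52.7% and 0.384 over all 32851 windows. The Prdm16 window had 61% and 0.939, and the Gata2 window next to the called region 69.3% and 0.9, CpG ratios above those of 90.3% and 87.3% of windows. Meis1 stood between, at 58.3% and 0.589. Among genes with no called region, Myb had 75% and 0.952, Hlf 67.3% and 0.893, and the proximal Runx1 window 69% and 1.01, while the distal Runx1 window had 45% and 0.137. The Mecom windows had 49.7% and 0.488, and 52% and 1.02.

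Both the Cd48 and the Meis1 windows held 1 match to TGTGGT, the RUNX core, and 1 to CCGGAAG, an ETS motif, which 16.8% and 8.86% of all windows hold. The distal Runx1 window held 2 RUNX matches. GGGCGG occurred once in the Prdm16 window and once in the Gata2 window shown above, and in 35.7% of all windows. The GATA motif (GATA with A or T before it and A or G after it, in 29.8% of windows) occurred in none of the Gata2, Meis1, Prdm16 and Cd48 windows and in both Mecom windows. The MYB (CAACTG or TAACTG, 22.1%), MEIS (TGACAG, 19.2%) and HLF (TTACGTA, 0.475%) motifs were not found in the windows of the 4 listed genes. Among the windows of these 4 genes, the E-box CAGNTG was found in the second Gata2 window only. Windows of Runx1, Myb, Hlf and Mecom held it as well. It occurs in 51.4% of all windows, and its form CAGTTG is also a MYB match. A match is a run of letters and not a bound site.

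**Figure D4:**
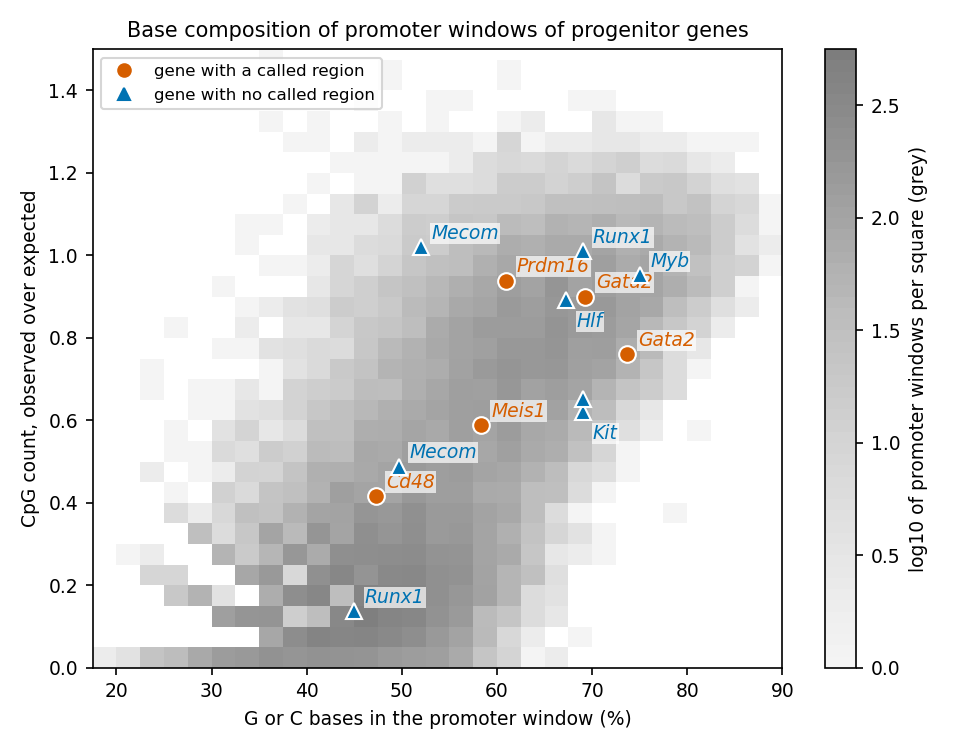
Promoter windows of the progenitor genes are placed by percentage of G or C (x axis) and by CpG count, observed over expected (y axis), circles being genes with a called region and triangles genes with none, over grey squares that count all windows on a log10 scale. Cd48 sits at 47.3% and 0.417, while Prdm16 and Gata2 lie among CpG-rich windows together with Myb, Hlf and the proximal Runx1 window. The distal Runx1 window sits at 45% and 0.137, and the Mecom windows at 49.7% and 0.488 and at 52% and 1.02.

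Over the 3 comparisons, 12 of the 6687 listed genes had the calls of Cd48, lower in each, 160 had those of Prdm16, higher in each, and 140 had those of Gata2, lower in Vav KO against Tie2 WT and higher in Tie2 KO against Vav KO. Meis1 and Cd93 shared theirs, lower in Vav KO against Tie2 WT alone, with 283 genes in all, themselves included. Closest to Cd48, by the summed absolute difference of the log2 fold changes in the 3 comparisons, was C5ar2, a complement receptor gene, at 0.28, then Kdm5c at 0.46 and Zcrb1 at 0.66. Closest to Prdm16 were Col24a1 at 0.26, Sdk2 at 0.27 and Kcna1 at 0.34. Closest to Gata2, over 2 comparisons, were Dnajc1 at 0.11, Fv1 at 0.14 and Map4k4 at 0.17.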

How the data were processed

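Libraries were made from 500 sorted cells with 14 cycles of PCR, per the labels' protocols. The submitters' processing notes name, without saying what each did, the build mm10 and the tools HOMER 4.10, MACS2 2.1.2, Picard, SAMtools 1.3.1, Bowtie2 and FastQC. The Tn5 read shift, duplicate removal, scaling and differential test were not given in the sources used here. Each region has, per the file headers, a log2 fold change with its adjusted p-value and other values for position, width and distance, all deposited by the authors. The group abbreviations in the list names were taken to mean Tie2 KO, Vav KO and Tie2 WT. Of 10679 lines, 10669 matched a RefSeq gene of GRCm38.p6, which gave names and gene types. Coordinates of regions are the authors' (mm10), counted from 1.

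Lists were joined, ranked and counted with Python 3.11.15 and pandas 2.3.3, without any test. The motif search and counting were tested on simulated data. The members and gene lists were chosen with earlier results of these data known. Named genes are all members, Ezh2, Tek and Vav1, up to 6 other progenitor genes per comparison and direction by fold change, genes paired with a member's region, and the 3 genes most alike in fold change. One gene that this rule names is not reported here. The markers of 5 other cell groups were counted, and 1 marker symbol did not match. Neighbours were sought within 100 kb. Alternatives were a log2 fold change of at least 1, an adjusted p of at most 0.01, a distance of at most 1 kb, regions with 1 gene, another overlap, another gene total and the region nearest the start.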

Additional observations from a re-analysis of the deposited data

Results flagged for a closer look

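The authors' direct comparison of the knockouts called 4 regions at 3 of the progenitor genes. In the authors' deposited table the log2 fold changes of Tie2 KO against Vav KO were 0.92 upstream of Gata2, 1.32 upstream of Prdm16, 0.99 over the start of Prdm16 and -1.08 upstream of the authors' start of Cd48. The driver and the mouse line that carries it cannot be told apart in these values. Groups of samples could not be searched for a sample that stands apart, since the files used here hold none.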

How the results depend on the processing

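No paired analysis was possible because the files hold no value per sample, and for the same reason no replicate could be left out in turn. With a log2 fold change of at least 1, members near lower regions of Tie2 KO against Tie2 WT numbered 0 (Cd48 was lost), and members near higher regions of Tie2 KO against Vav KO numbered 1, as they did with an adjusted p of at most 0.01 (Gata2 was lost both times). Within 1 kb of the gene start, 0 members were near higher regions of Vav KO against Tie2 WT. The other counts of members moved by no more than 1.5 times. Of the other progenitor genes, a log2 fold change of at least 1 left 6 higher and 0 lower genes in Tie2 KO against Tie2 WT and 4 lower ones in Tie2 KO against Vav KO. The 1 kb limit left 9 higher in Tie2 KO against Tie2 WT, 3 higher in Vav KO against Tie2 WT and 5 lower in Tie2 KO against Vav KO. With all genes of the RefSeq table as the total, shares near higher and lower regions were 5.66% and 1.31% for Tie2 KO against Tie2 WT, 2.69% and 1.31% for Vav KO against Tie2 WT, and 5.51% and 3.21% for Tie2 KO against Vav KO. Each alternative keeps fewer regions or counts more genes. Taking the region nearest the gene start, Prdm16 had 0.94 in place of 1.67 against Tie2 WT and 0.99 in place of 1.32 against Vav KO. Depth is unknown, so what it limits cannot be stated.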

Other observations

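Families of the members were looked up in the same lists after their values had been seen, where 26.8% of protein-coding genes have a line in any list. Counts that include Gata2, Meis1, Prdm16, Cd93 or Cd48 hold a gene already known to have a line, so nothing is read from them. Of 6 GATA factors, 5 had a line. Gata3, Gata4, Gata5 and Gata6 lay near higher regions in Tie2 KO against Tie2 WT, as did 11.5% of protein-coding genes. Their log2 fold changes per the authors' deposited table were 1.35, 1.41, 1.38 and 1.21 at their strongest regions. Gata2 was not called there and Gata1, the erythroid factor, had no line. Gata6 was also near a higher region in Vav KO against Tie2 WT, at 1.22 per the authors' deposited table. Meis2 was near a higher region in both knockouts, at 0.78 in Tie2 KO and 0.79 in Vav KO, each against Tie2 WT per the authors' deposited table, while Meis1 was near a lower one in Vav KO. Runx1, Runx2, Runx3 and their partner Cbfb had no line, nor did Myb, Mybl1 and Mybl2. Of 9 SLAM receptor genes, Cd48 and Ly9 had a line and 7 had none. Among relatives of Cd93, the endothelial gene Clec14a was near a higher region in Tie2 KO, at 0.71 against Tie2 WT and 1.02 against Vav KO per the authors' deposited table, and Thbd and Cd248 had no line. Of 5 class III receptor kinase genes, Kit and Flt3 had no line. Pdgfra was higher in Tie2 KO and lower in Vav KO, at 1.17 and -1.57 against Tie2 WT per the authors' deposited table. Of 7 factors known to bind together in blood progenitors, Gata2, Lmo2 and Erg had a line, with no comparison and direction in common, and Runx1, Tal1, Lyl1 and Fli1 had none. Erg was at 1.52 in Tie2 KO against Tie2 WT and Lmo2 at -0.69 in Tie2 KO against Vav KO per the authors' deposited table.

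The promoter windows of the paralogues Prdm16 (chromosome 4) and Mecom (chromosome 3, the window that starts at 30509710) share an unbroken run of 24 bases just inside the transcript, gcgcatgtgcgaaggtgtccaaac. The Mecom copy ends at the last base of its window, so 24 is a minimum length. The run begins 9 bases after the first transcribed base of Prdm16 and 26 after that of Mecom. These were the only 2 of 32851 windows that hold it on either strand, and the next longest run in any of the 74 pairs of windows of different members was 12 bases. The Prdm16 copy lies in regions called as higher in Tie2 KO, and the Mecom copy in none.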
